A study of Mus musculus with 8 samples.

Results

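The 43 genes described here encode subunits and close partners of the mouse proteasome, and were taken from a table of 17847 genes as every symbol in the Psma, Psmb, Psmc, Psmd and Psme series. Of these, 18 are core genes (Psma and Psmb) and 25 are regulatory genes (Psmc, Psmd and Psme). RNA was measured in muscle stem cells, the resident progenitors from which damaged myofibres are rebuilt, sorted from C57Bl/6 mice as CD34-positive cells without CD31, CD45, Sca1 or DAPI staining. There were 4 libraries from Cox10-/- animals, in which a floxed Cox10 allele was deleted by a tamoxifen-dependent Cre under Pax7, and 4 from wild-type animals. Cells were purified 2 days after tamoxifen. The labels give a single intraperitoneal dose of 200 mg/kg for every sample, in both genotypes, and do not say whether the wild-type animals carried the Cre driver or floxed alleles. The mice are described as adult, with no age in the labels, and no label states that each library came from its own animal, so the p-values below measure the spread between these libraries.

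The proteasome is the protease that removes most unwanted proteins of the cytosol and nucleus. Its core particle is a barrel of stacked rings. The outer rings are made of alpha subunits, which gate the entrance, and the inner rings of beta subunits, of which Psmb5, Psmb6 and Psmb7 carry the peptide-cutting sites. A regulatory particle on either end is made of a base and a lid, which bind, deubiquitinate and unfold the substrate. The base holds a ring of ATPases (Psmc genes) together with some Psmd subunits, and the lid holds other Psmd subunits. Interferon can bring in the inducible beta subunits Psmb8, Psmb9 and Psmb10 and the activator PA28, whose subunits are encoded by Psme1 and Psme2. When proteasome activity is limiting in mammalian cells, the transcription factor NFE2L1 raises many of these genes together.

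Library depth, recovered from the worth of 1 read in each column, was 1693947 to 4349279 reads counted in genes in Cox10-/- libraries and 2148289 to 4649341 in wild-type libraries. The shallowest libraries were Cox10-/- replicate 4 and wild-type replicate 2. Cox10 itself held 49, 56, 35 and 7 reads in Cox10-/- replicates 1 to 4, against 56, 23, 81 and 52 in wild-type replicates 1 to 4. The difference did not pass the test (log2 fold change -0.62 ± 0.34, SE; limma adjusted p = 0.246). The deleted exon is not named in the labels, and reads from other exons count here. All 10 muscle stem cell markers were above 0 in every library, and of these 5 fell and none rose. Their summed level was 1722 to 1892 CPM (read counts scaled to the library total) in Cox10-/- libraries and 2469 to 3193 CPM in wild-type libraries. Of 12 endothelial markers, 4 rose and none fell, with a sum of 405 to 501 CPM in Cox10-/- libraries and 357 to 389 CPM in wild-type libraries. Among 8 fibroblast markers 2 rose and 1 fell (4673 to 9976 CPM in Cox10-/-, 4639 to 6347 CPM in wild-type). Among 8 myofibre markers 2 rose (94.9 to 270.3 CPM in Cox10-/-, 58.7 to 154.2 CPM in wild-type). Of 12 leukocyte markers, 6 were in the table and none of these passed (29.5 to 50.3 CPM in Cox10-/-, 25.6 to 38.3 CPM in wild-type). At least 1 library listed Tie1, Emcn, Cldn5 and Egfl7 (endothelial), Cd74, Coro1a and Cd79a (leukocyte), Ly6a (fibroblast) and Myh2 (myofibre) at 0. Among the sorting-marker genes, Pecam1 (CD31) and Ly6a (Sca1) rose. Their log2 fold changes were 1.39 ± 0.37 and 1.835 ± 0.471 (SE; limma adjusted p = 0.024 and 0.0202). The Pecam1 groups overlapped, and Ly6a was at 0 in wild-type replicate 2. Cd34 did not pass (log2 fold change -0.26; limma adjusted p = 0.136), and Ptprc (CD45) was not in the table. The part of these cell types in the proteasome values was not tested. In bulk RNA, fewer cells of a type and less RNA per cell cannot be told apart.

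Of the 43 proteasome subunit transcripts, 2 passed the test and 41 did not. A log2 fold change below 0 was found for 38 (88.4%, against 55.2% of all genes tested), with a median of -0.21 where the median of all genes was -0.06. The fold changes ran from -0.75 for Psmd14 to 0.14 for Psmb11. At an adjusted p under 0.05, 2 members fell, Psmd14 and Psmd1, and none rose. That is 4.65% of the members, while 8.51% of all genes tested fell and 7.58% rose. Rises made up 47.1% of all calls as deposited and 58.4% after the library medians were aligned. The count of members called was 1 when any library other than wild-type replicate 2 was left out, 3 without wild-type replicate 2 and 3 without the 2 shallowest libraries. At an unadjusted p under 0.05, 11 members were lower (25.6%, against 16.9% of all genes) and none were higher. The 95% intervals of the members had a median width of 0.29 to each side on the log2 scale, against 0.48 for all genes. All 4 Cox10-/- libraries lay below all 4 wild-type libraries for 10 members (23.3%, against 11.8% of all genes), and no member was separated in the other direction, as 9.3% of all genes were.

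**Figure D1:**
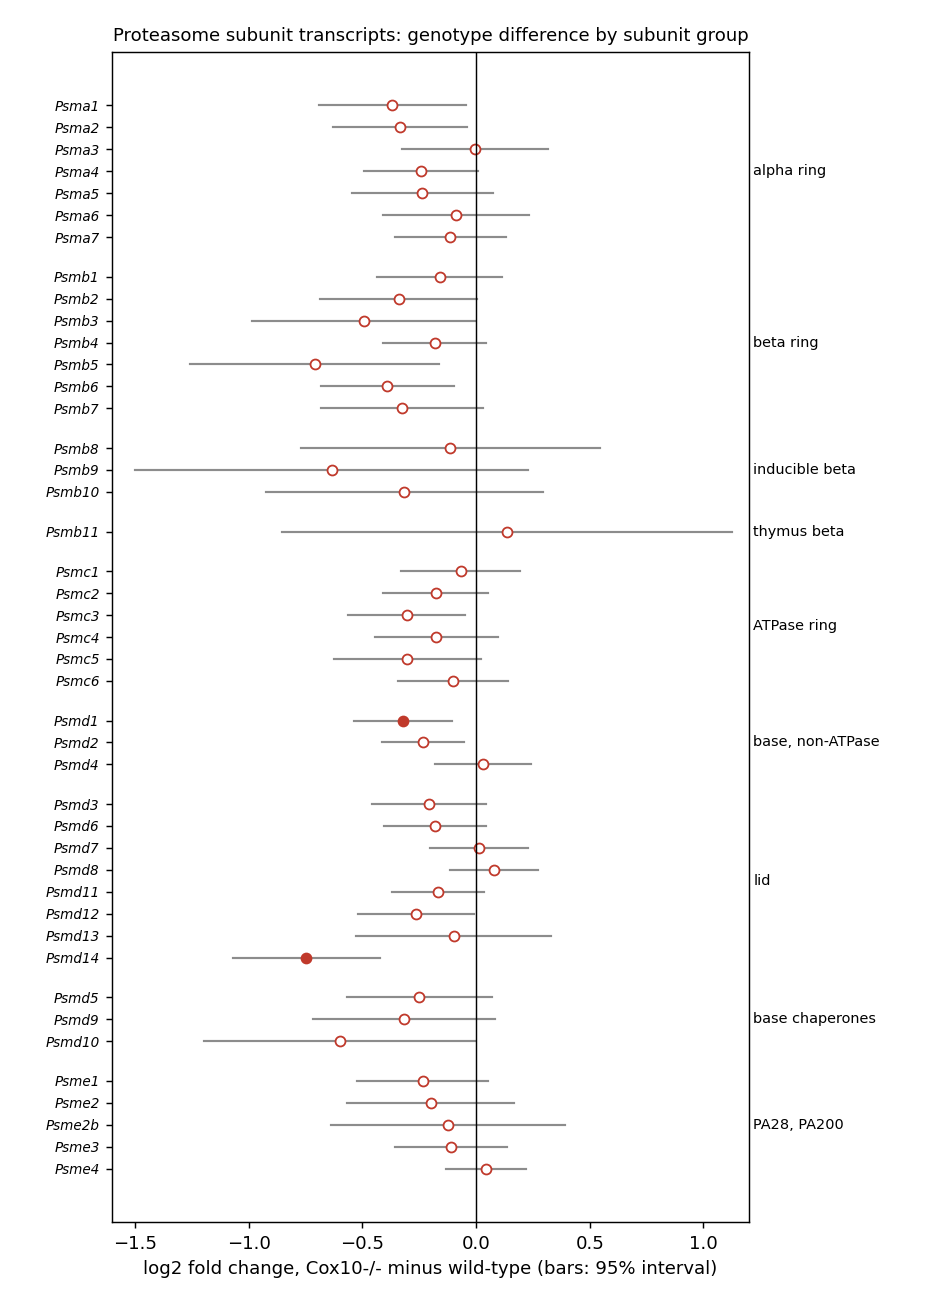
Log2 fold change of each of the 43 subunit transcripts, Cox10-/- minus wild-type (x axis), with 95% intervals from the fit as bars and genes grouped by their place in the complex (right margin); filled points passed an adjusted p of 0.05. The 2 filled points are Psmd14 at -0.75 and Psmd1 at -0.32, and 38 of the 43 points lie below 0.

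Among the lid genes, Psmd14, the subunit that cuts ubiquitin chains off substrates as they enter, changed most. Psmd14 stood at 4.54, 4.93, 4.51 and 4.99 log2 CPM in Cox10-/- replicates 1 to 4, against 5.48, 5.34, 5.52 and 5.62 log2 CPM in wild-type replicates 1 to 4. These rest on 100, 133, 71 and 54 reads in Cox10-/- replicates 1 to 4 and on 158, 87, 213 and 198 in wild-type replicates 1 to 4. Every Cox10-/- library was below every wild-type library, and Cox10-/- replicates 1 and 3 were the lowest. The log2 fold change of Psmd14 was -0.75 ± 0.15 (SE over 4 libraries each; limma adjusted p = 0.00534), which is 59.6% of the wild-type level. Within the libraries numbered 1 and 2 it was -0.68, within those numbered 3 and 4 it was -0.82, and it passed in all 8 fits that left out 1 library. The call was lost when the means of replicates 1 and 2 and of 3 and 4 were used as 2 samples per genotype (limma adjusted p = 0.0651). The partner with which PSMD14 forms a dimer, Psmd7, stood at 6.05, 6.11, 6.20 and 6.32 log2 CPM in Cox10-/- replicates 1 to 4, against 6.07, 6.19, 6.15 and 6.22 in wild-type replicates 1 to 4. The Psmd7 groups overlapped, and its log2 fold change was 0.01 with a 95% interval of -0.20 to 0.23, where that of Psmd14 ran from -1.07 to -0.42. The difference between these genes was not itself tested. The remaining lid genes had log2 fold changes between -0.27 (Psmd12) and 0.08 (Psmd8), with none past the test. Of these, Psmd6 was separated, with 5.49 to 5.72 log2 CPM in Cox10-/- libraries and 5.75 to 5.85 in wild-type libraries.

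In the base, the large scaffold subunit gene Psmd1 fell. Psmd1 stood at 6.20, 6.37, 6.24 and 6.30 log2 CPM in Cox10-/- replicates 1 to 4, against 6.63, 6.40, 6.71 and 6.65 in wild-type replicates 1 to 4. The groups did not overlap, but wild-type replicate 2 was only just above the highest Cox10-/- library. Psmd1 had a log2 fold change of -0.32 ± 0.10 (SE; limma adjusted p = 0.0462). The call held without wild-type replicate 2 and failed when any of the other 7 libraries was dropped, with an adjusted p as high as 0.127. It was also lost after median centring (0.167), with TMM factors (0.0719) and without the variance trend (limma adjusted p = 0.103). The same held with the replicate number as a block (0.0625) and with 2 means per genotype (limma adjusted p = 0.318). The exons of Psmd1 overlap those of the gene model Gm21972 on the same strand, so reads could be shared. Psmd2, which encodes the other scaffold of the base, was also separated, at 6.70, 6.66, 6.64 and 6.69 log2 CPM in Cox10-/- replicates 1 to 4, against 6.93, 6.81, 6.98 and 6.90 in wild-type replicates 1 to 4. Its log2 fold change of -0.23 ± 0.08 (SE) did not pass (limma adjusted p = 0.078). Psmd4, which encodes a ubiquitin receptor, was at 6.41 to 6.62 log2 CPM in Cox10-/- libraries and 6.39 to 6.62 in wild-type libraries, with a 95% interval of the log2 fold change of -0.18 to 0.24.

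**Figure D2:**
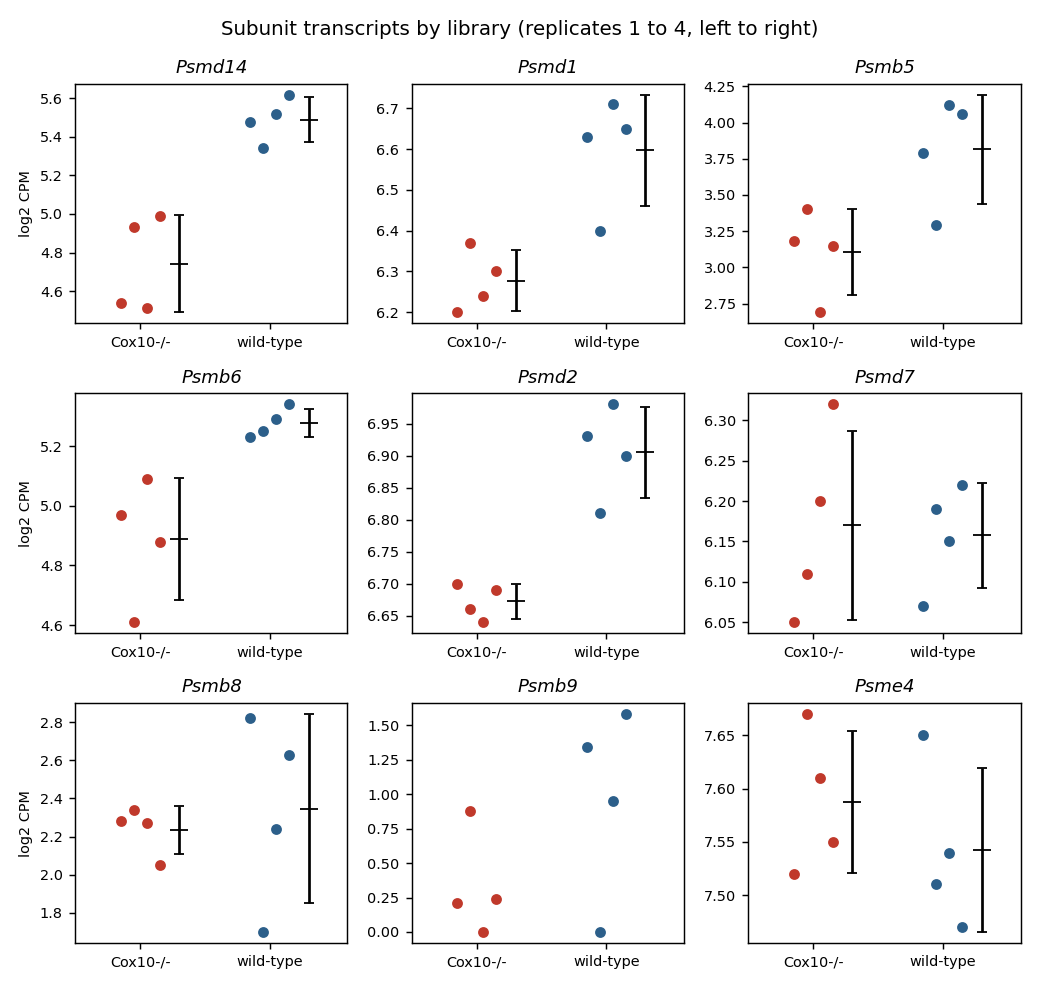
Log2 CPM (y axis, own scale in each panel) of 9 subunit transcripts in the 4 Cox10-/- libraries (red, left) and the 4 wild-type libraries (blue, right), replicates 1 to 4 from left to right, with the mean and SD beside each group that has no library at the floor. The groups are separated for Psmd14, Psmd1, Psmb6 and Psmd2 and overlap for Psmb5, Psmd7, Psmb8, Psmb9 and Psme4; values at 0 are at the floor of the table.

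None of the 6 ATPase genes, whose products unfold the substrate, passed the test. All 6 lay below 0, as 55.2% of all genes tested did, from -0.31 (Psmc3) to -0.07 (Psmc1). Psmc3 stood at 6.22, 5.97, 6.46 and 6.39 log2 CPM in Cox10-/- replicates 1 to 4, against 6.44, 6.54, 6.66 and 6.62 in wild-type replicates 1 to 4. Only Cox10-/- replicate 3 reached the wild-type range. The log2 fold change of Psmc3 was -0.31 ± 0.12 (SE; limma adjusted p = 0.0994), and its exons overlap Slc39a13 on the opposite strand. Psmc2 was the one separated ATPase gene, at 5.30 to 5.37 log2 CPM in Cox10-/- libraries and 5.43 to 5.57 in wild-type libraries. The chaperones that help to assemble the base, Psmd5, Psmd9 and Psmd10, had log2 fold changes of -0.25, -0.32 and -0.60, and none passed (limma adjusted p from 0.159 to 0.272). Psmd10, which encodes gankyrin, held 2.41, 2.97, 3.27 and 2.41 log2 CPM in Cox10-/- replicates 1 to 4, against 3.26, 3.07, 3.71 and 3.42 in wild-type replicates 1 to 4, and Cox10-/- replicate 3 overlapped the wild-type libraries.

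Core subunit transcripts had no call, where 8.51% of all genes tested fell and 7.58% rose. Of the 18, 17 lay below 0 (94.4%, against 55.2% of all genes). The 7 alpha-ring genes ran from -0.37 (Psma1) to -0.01 (Psma3), with a median of -0.24 and the smallest limma adjusted p at 0.113, for Psma2. Psma2 was at 4.52 to 4.72 log2 CPM in Cox10-/- libraries and 4.86 to 5.10 in wild-type libraries, and Psma4, whose product helps to close the gate, at 5.09 to 5.43 in Cox10-/- libraries and 5.47 to 5.53 in wild-type libraries. Both were separated between the genotypes, and the other 5 alpha genes overlapped. The 7 beta-ring genes of the standard proteasome ran from -0.71 (Psmb5) to -0.16 (Psmb1), with a median of -0.34. Psmb2, Psmb4 and Psmb6 were separated. With the alpha genes, 5 core genes were separated (27.8%), against 11.8% of all genes tested.

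The 3 catalytic subunit genes of the standard proteasome had lower levels in Cox10-/- cells on average, and none passed the test. Psmb5, which encodes the chymotrypsin-like subunit targeted by bortezomib, stood at 3.18, 3.40, 2.69 and 3.15 log2 CPM in Cox10-/- replicates 1 to 4, against 3.79, 3.29, 4.12 and 4.06 in wild-type replicates 1 to 4. These values rest on 39, 46, 20 and 15 reads in Cox10-/- replicates 1 to 4 and on 49, 21, 81 and 67 reads in wild-type replicates 1 to 4. Wild-type replicate 2, a shallow library, lay inside the Cox10-/- range. Psmb5 had a log2 fold change of -0.71 ± 0.25 (SE; limma adjusted p = 0.0758). Within the libraries numbered 1 and 2 it was -0.25, and within those numbered 3 and 4 it was -1.17. Without wild-type replicate 2 it was -0.89 and passed (limma adjusted p = 0.0273). Psmb6, which encodes the caspase-like subunit, stood at 4.97, 4.61, 5.09 and 4.88 log2 CPM in Cox10-/- replicates 1 to 4, against 5.23, 5.25, 5.29 and 5.34 in wild-type replicates 1 to 4. All 4 Cox10-/- libraries were below all 4 wild-type libraries, and the wild-type libraries lay close together. Psmb6 had a log2 fold change of -0.39 ± 0.14 (SE; limma adjusted p = 0.0691). Psmb7, which encodes the trypsin-like subunit, stood at 4.58, 4.82, 4.43 and 4.37 log2 CPM in Cox10-/- replicates 1 to 4, against 5.16, 4.78, 4.91 and 4.65 in wild-type replicates 1 to 4. The groups overlapped, with a log2 fold change of -0.33 ± 0.16 (SE; limma adjusted p = 0.2). Psmb5 shares exon sequence with Mir686 on the same strand, and Psmb7 with Nek6 on the opposite strand.

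The inducible catalytic subunits were scarce in both genotypes, and no difference passed. Psmb8, the counterpart of Psmb5, held 21, 22, 15 and 7 reads in Cox10-/- replicates 1 to 4 and 25, 7, 22 and 25 reads in wild-type replicates 1 to 4. Its log2 fold change was -0.11 with a 95% interval of -0.77 to 0.54, and the Cox10-/- libraries lay within the range of the wild-type libraries. Taken within each library, the log2 CPM of Psmb8 minus that of Psmb5 was -0.90, -1.06, -0.42 and -1.10 in Cox10-/- replicates 1 to 4, against -0.97, -1.59, -1.88 and -1.43 in wild-type replicates 1 to 4. Cox10-/- replicates 2 and 4 lay within the wild-type range of that difference, and replicates 1 and 3 above it. Psmb10, the counterpart of Psmb7, stood at 3.18, 2.83, 2.45 and 2.41 log2 CPM in Cox10-/- replicates 1 to 4, against 2.93, 2.70, 3.51 and 2.99 in wild-type replicates 1 to 4 (log2 fold change -0.32, 95% interval -0.92 to 0.29). Psmb9, the counterpart of Psmb6, was listed at 0.21, 0.88, 0 and 0.24 log2 CPM in Cox10-/- replicates 1 to 4, against 1.34, 0, 0.95 and 1.58 in wild-type replicates 1 to 4. A listed 0 stands for any CPM of 1 or less, and the Psmb9 values above 0 rest on 2 to 8 reads in Cox10-/- libraries and 9 to 12 in wild-type libraries. Its exons overlap those of Tap1 on the opposite strand, and without a stated strand setting the reads of these genes cannot be told apart. Psmb11, the thymus-type beta subunit, was listed at 1.06, 1.05, 1.82 and 0 log2 CPM in Cox10-/- replicates 1 to 4, against 1.63, 0, 0.59 and 1.16 in wild-type replicates 1 to 4. The Psmb11 values above 0 rest on 9 to 11 reads in Cox10-/- libraries and 7 to 11 in wild-type libraries. The 95% interval of the log2 fold change was -1.50 to 0.23 for Psmb9 and -0.85 to 1.13 for Psmb11, so neither direction was shown.

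Of the activator genes, none passed. Psme1 stood at 4.76, 4.75, 4.72 and 4.73 log2 CPM in Cox10-/- replicates 1 to 4, against 5.13, 5.01, 5.0 and 4.76 in wild-type replicates 1 to 4, and the groups met at wild-type replicate 4 and Cox10-/- replicate 1 (log2 fold change -0.24 ± 0.13, SE; limma adjusted p = 0.255). Psme2 stood at 4.10, 3.76, 4.01 and 3.88 log2 CPM in Cox10-/- replicates 1 to 4, against 4.26, 4.03, 4.14 and 4.12 in wild-type replicates 1 to 4. Cox10-/- replicate 1 overlapped the wild-type libraries, and the log2 fold change of Psme2 was -0.20 ± 0.17 (SE). Psme2b is a near copy of Psme2, so reads could be split between them, and it overlaps a further gene model on the same strand. Its log2 fold change was -0.12 ± 0.24 (SE). Psme3, which encodes the nuclear form of PA28, stood at 5.84, 6.01, 5.69 and 5.94 log2 CPM in Cox10-/- replicates 1 to 4, against 6.17, 5.87, 5.96 and 5.92 in wild-type replicates 1 to 4. Psme4, which encodes the activator PA200, had the narrowest interval of the 43 genes. It stood at 7.52, 7.67, 7.61 and 7.55 log2 CPM in Cox10-/- replicates 1 to 4, against 7.65, 7.51, 7.54 and 7.47 in wild-type replicates 1 to 4. The groups overlapped, and the 95% interval of the log2 fold change of Psme4 was -0.13 to 0.22.

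Set side by side, the core genes had the lower median, by a margin smaller than the range over the Cox10-/- libraries. The median log2 fold change was -0.28 over the 18 core genes and -0.18 over the 25 regulatory genes. As the median deviation from each gene's wild-type mean, core genes stood at -0.30, -0.16, -0.22 and -0.38 in Cox10-/- replicates 1 to 4, against 0.02, -0.12, 0.02 and 0.04 in wild-type replicates 1 to 4. Regulatory genes stood at -0.17, -0.15, -0.16 and -0.22 (log2) in Cox10-/- replicates 1 to 4, against 0.06, -0.09, 0.03 and 0.01 in wild-type replicates 1 to 4. For both classes every Cox10-/- library was below every wild-type library, with wild-type replicate 2 the nearest. The median deviation of all genes tested was 0.01, 0.02, -0.04 and -0.18 in Cox10-/- replicates 1 to 4, against 0.02, -0.12, 0.07 and 0.03 in wild-type replicates 1 to 4. Cox10-/- replicate 4 and wild-type replicate 2, the shallow libraries, were low over all genes as well. In Cox10-/- replicate 4 the regulatory median of -0.22 lay close to the all-gene median of -0.18. The separation of the classes by library is unadjusted for such shifts and was not tested after their removal. After the library medians were aligned, the median log2 fold change was -0.195 for core genes and -0.10 for regulatory genes. Core minus regulatory, the median deviation was -0.14, -0.02, -0.06 and -0.16 in Cox10-/- replicates 1 to 4, against -0.03, -0.03, 0.00 and 0.03 in wild-type replicates 1 to 4, and Cox10-/- replicate 2 lay within the wild-type range. The difference between the class medians was -0.10 over all libraries, -0.03 among those numbered 1 and 2 and -0.12 among those numbered 3 and 4. In summed level, core genes held 434.7 to 467.3 CPM in Cox10-/- libraries and 505.0 to 547.1 CPM in wild-type libraries, and regulatory genes 1404 to 1453 CPM in Cox10-/- libraries and 1524 to 1644 CPM in wild-type libraries. The core sum divided by the regulatory sum was 0.310, 0.322, 0.310 and 0.322 in Cox10-/- replicates 1 to 4. In wild-type replicates 1 to 4 that ratio was 0.333, 0.331, 0.332 and 0.333. By the ratio of sums, unlike the difference of medians, every Cox10-/- library lay below every wild-type library. Because the members were chosen as a class, these values have no test.

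**Figure D3:**
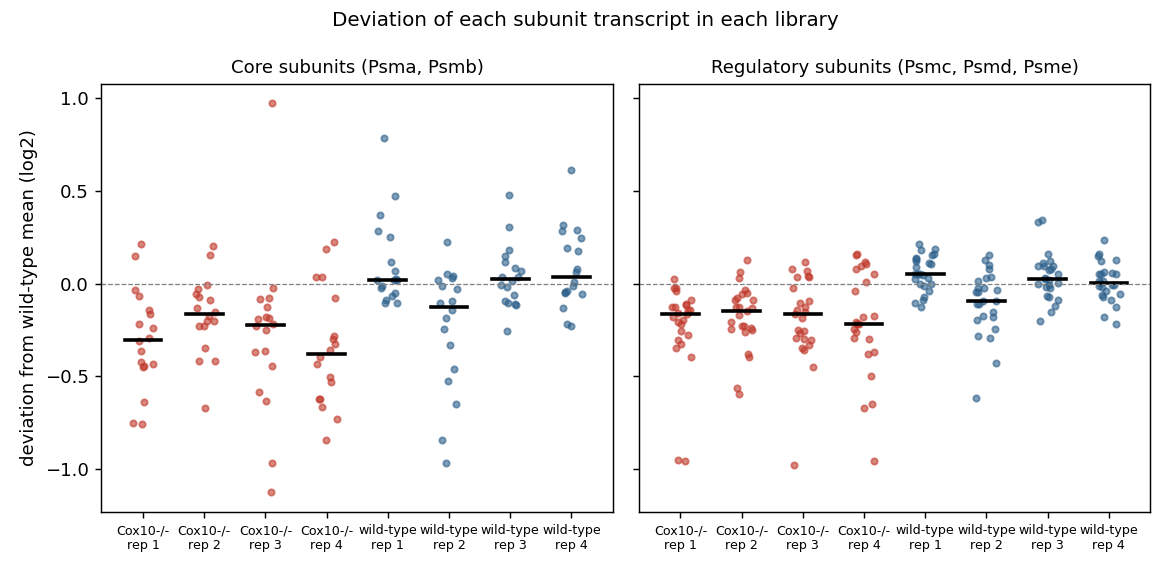
Deviation of each subunit transcript from its own wild-type mean (y axis, log2) in each library (x axis), for the 18 core genes (left panel) and the 25 regulatory genes (right panel); points are genes and black bars are medians. The medians of Cox10-/- libraries lie between -0.38 and -0.16 for core genes and between -0.22 and -0.15 for regulatory genes, below those of every wild-type library. Deviations are not adjusted for the median of all genes in each library.

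Adjusted for length, as CPM per kb of annotated exon, the subunits of the standard core particle, which are present in equal numbers in each particle, were spread widely in transcript level. In wild-type cells they ran from 10.6 ± 0.8 CPM per kb for Psma2 to 48.6 ± 1.6 for Psmb6 (SD, n = 4). In Cox10-/- cells they ran from 8.44 ± 0.64 for Psma2 to 37.4 ± 1.7 for Psmb4, with Psma7 and Psmb6 within the spread of the highest. Psmb5 was the lowest of the standard catalytic subunits in both genotypes, at 9.72 ± 1.89 CPM per kb in Cox10-/- cells and 16.0 ± 3.8 in wild-type cells. Psmb7 stood at 20.3 ± 2.9 in Cox10-/- cells and 25.5 ± 3.9 in wild-type cells, and Psmb6 at 37.4 ± 5.1 in Cox10-/- cells and 48.6 ± 1.6 in wild-type cells, and these steps exceeded the spread between libraries. The inducible subunits were lower still: Psmb10 had 5.14 ± 1.34 CPM per kb in Cox10-/- cells and 6.38 ± 1.61 in wild-type cells, and Psmb8 had 2.90 ± 0.25 in Cox10-/- cells and 3.26 ± 1.03 in wild-type cells. The ATPase genes lay between 22.7 and 37.8 CPM per kb in Cox10-/- cells and between 25.6 and 46.4 in wild-type cells, a narrower band than the lid genes, at 16.1 to 45.7 in Cox10-/- cells and 17.7 to 45.2 in wild-type cells. Psmd14 had 17.6 ± 3.1 CPM per kb in Cox10-/- cells and 29.2 ± 2.3 in wild-type cells, and neighbours in the wild-type order such as Psmc4 (27.6 ± 2.5 in Cox10-/-, 31.2 ± 3.0 in wild-type) and Psme4 (29.7 ± 1.4 in Cox10-/-, 28.8 ± 1.6 in wild-type) did not differ from it there beyond their spread. The base chaperones were low, at 4.78 to 8.38 CPM per kb in Cox10-/- cells and 7.11 to 10.5 in wild-type cells. Exon lengths came from an annotation of another build than the counts, so an order resting on a gene with long alternative exons, such as Psma2, is uncertain.

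**Figure D4:**
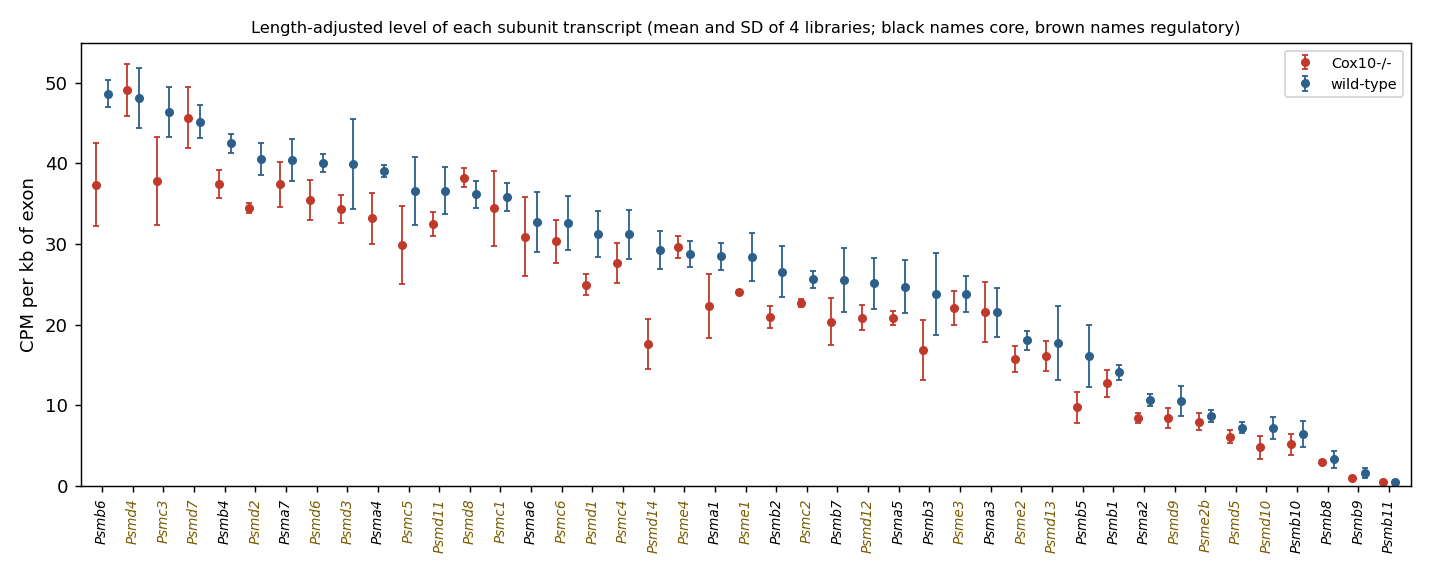
Length-adjusted level of each of the 43 transcripts (y axis, CPM per kb of annotated exon; points are means and bars SD of 4 libraries) in Cox10-/- (red, left of each pair) and wild-type cells (blue), ordered by the wild-type mean. Psmb6 is the highest core transcript in wild-type cells at 48.6, and Psmb8, Psmb9 and Psmb11 are the lowest in both genotypes; libraries at the floor count as 1 CPM.

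Genes that build, regulate or feed the proteasome held 4 called genes among 48 distinct genes tested over 5 lists (8.33%), against 16.1% of all genes called in either direction. Of 5 genes for assembly factors of the core particle in the table, all were below 0 and none passed. The closest was Pomp, whose product completes the barrel, at 4.49, 4.55, 4.43 and 4.24 log2 CPM in Cox10-/- replicates 1 to 4, against 4.70, 4.98, 4.87 and 4.92 in wild-type replicates 1 to 4. The Pomp groups were separated (log2 fold change -0.44 ± 0.14, SE; limma adjusted p = 0.0567). Of 6 genes of the NFE2L1 route, 1 rose and none fell. Ddi2, which encodes the protease that releases NFE2L1 for the nucleus, stood at 7.69, 7.79, 7.77 and 7.69 log2 CPM in Cox10-/- replicates 1 to 4, against 7.16, 7.15, 7.11 and 7.0 in wild-type replicates 1 to 4. It rose by 0.63 ± 0.08 (log2, SE; limma adjusted p = 2.97e-04) and passed in all 8 fits without 1 library. Nfe2l1 itself was higher in every Cox10-/- library, at 8.09, 8.13, 8.16 and 8.16 log2 CPM in Cox10-/- replicates 1 to 4, against 7.99, 7.96, 7.98 and 7.91 in wild-type replicates 1 to 4. That difference of 0.17 ± 0.07 (log2, SE) did not pass (limma adjusted p = 0.123).

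Among 16 proteasome-bound factors and ubiquitin shuttles, which include Ddi2, 1 rose and 2 fell (12.5%). Of all genes tested, 7.58% rose and 8.51% fell, so these counts are not read as a result about the list. Ube3c, which encodes a ubiquitin ligase that helps the proteasome through difficult substrates, fell by 0.57 ± 0.10 (log2, SE; limma adjusted p = 0.00276). It stood at 6.37, 6.42, 6.32 and 6.07 log2 CPM in Cox10-/- replicates 1 to 4, against 6.85, 6.77, 6.88 and 6.97 in wild-type replicates 1 to 4. Ubqln4, a shuttle factor gene, fell by 0.46 ± 0.11 (log2, SE; limma adjusted p = 0.0172), with 6.26, 5.88, 6.03 and 5.81 log2 CPM in Cox10-/- replicates 1 to 4, against 6.45, 6.35, 6.51 and 6.51 in wild-type replicates 1 to 4. The groups of both genes were separated, and both calls were lost with 2 means per genotype (limma adjusted p = 0.0709 for Ube3c and 0.156 for Ubqln4). The Ubqln4 call was also lost without the variance trend (limma adjusted p = 0.0538). Adrm1, which encodes a ubiquitin receptor of the regulatory particle, and Psmf1, which encodes a binding protein of the core, had log2 fold changes of -0.05 ± 0.17 and -0.07 ± 0.16 (SE) and did not pass. Of 6 genes for ubiquitin precursors and activating enzymes, 1 fell and none rose (16.7% called, near the 16.1% of all genes). Uba1, the main activating enzyme gene, fell by 0.27 ± 0.08 (log2, SE; limma adjusted p = 0.0308). It stood at 7.58, 7.59, 7.48 and 7.55 log2 CPM in Cox10-/- replicates 1 to 4, against 7.88, 7.78, 7.86 and 7.77 in wild-type replicates 1 to 4. The groups were separated. The Uba1 call failed without Cox10-/- replicate 2 or 3 or without wild-type replicate 1, 3 or 4 (limma adjusted p at most 0.102), after median centring (0.329), with TMM factors (0.117), without the variance trend (0.106) and with 2 means per genotype (limma adjusted p = 0.343). Of 16 genes of class I antigen presentation and interferon response, with which the inducible subunits are often co-expressed, none passed, 8 lay below 0 and 8 above, and the median was 0.01.

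Promoter windows from RefSeq (build GRCm38.p6, 250 bases before to 50 after each annotated start) were found for 37 of the 43 genes. They were searched on both strands for TGACNNNGC, the core of the antioxidant response element that NFE2L1 and its relatives bind. A gene was counted if any of its windows matched. The letters occurred in the windows of 6 members (Psmb5, Psmb6, Psmc6, Psmd9, Psmd12 and Psme4), 16.2% of the 37. The share was 14.0% of all genes with a window and 17% of tested genes with a window (1877 of 11044). The core had 2 of 15 and the regulatory genes 4 of 22. The median log2 fold change was -0.29 over these 6 genes, from -0.71 for Psmb5 to 0.04 for Psme4, and -0.18 over the other 31. The letters CCAAT, on either strand, occurred in 14 of the 37 (37.8%). The share was 41.1% of all genes with a window and 42.2% of tested genes with a window. The letters GGGCGG occurred in 22 (59.5%, against 38.2% of all genes with a window and 66.8% of tested genes with a window). Each motif was counted on its own, whether or not matches overlapped. A match describes the letters only. Psmb7, the other standard catalytic subunit gene beside Psmb5 and Psmb6, had no window and was not searched. The windows of the 2 members that fell and of the 2 standard catalytic subunit genes with a match are shown 5′ to 3′ on the gene's strand, with the matched letters TGACNNNGC in capitals. They lie at chr2:61711444-61711743 (plus strand) for Psmd14, chr1:86064369-86064668 (plus strand) for Psmd1, chr14:54617946-54618245 (minus strand) for Psmb5 and chr11:70525107-70525406 (plus strand) for Psmb6.
Psmd14: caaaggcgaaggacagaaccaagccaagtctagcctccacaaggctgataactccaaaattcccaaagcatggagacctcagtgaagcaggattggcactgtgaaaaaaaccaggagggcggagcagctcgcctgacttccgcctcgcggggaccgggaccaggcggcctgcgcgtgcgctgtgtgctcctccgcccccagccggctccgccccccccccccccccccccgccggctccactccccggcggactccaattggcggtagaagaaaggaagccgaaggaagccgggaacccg
Psmd1: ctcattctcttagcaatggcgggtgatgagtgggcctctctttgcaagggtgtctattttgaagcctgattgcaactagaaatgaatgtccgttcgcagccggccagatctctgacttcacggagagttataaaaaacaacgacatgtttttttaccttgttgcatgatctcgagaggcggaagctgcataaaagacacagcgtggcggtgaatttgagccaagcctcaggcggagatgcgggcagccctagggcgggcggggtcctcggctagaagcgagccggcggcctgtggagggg
Psmb5: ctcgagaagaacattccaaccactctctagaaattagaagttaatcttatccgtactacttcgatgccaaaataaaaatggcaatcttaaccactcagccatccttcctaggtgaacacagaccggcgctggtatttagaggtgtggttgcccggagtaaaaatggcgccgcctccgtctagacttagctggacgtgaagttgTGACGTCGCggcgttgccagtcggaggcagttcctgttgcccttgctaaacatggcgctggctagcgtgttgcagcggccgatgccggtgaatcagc
Psmb6: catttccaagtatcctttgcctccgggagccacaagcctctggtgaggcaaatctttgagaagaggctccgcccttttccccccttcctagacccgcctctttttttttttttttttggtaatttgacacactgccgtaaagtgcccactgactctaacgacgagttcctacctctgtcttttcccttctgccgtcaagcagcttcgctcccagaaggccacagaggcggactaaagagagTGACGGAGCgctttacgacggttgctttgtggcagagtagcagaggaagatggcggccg
In Psmb5 the match starts 47 bases before the annotated start and in Psmb6 9 bases before it. The windows of Psmd14 and Psmd1, the members that fell, held no match to these letters.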

How the data were processed

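RNA of sorted muscle stem cells was measured in 4 Cox10-/- and 4 wild-type libraries, starting, per the labels' protocols, from purified total RNA and a stranded kit for very small inputs. The authors deposited one table of log2 CPM, in which a gene's reads are divided by its library's total. Per the submitters' processing notes the authors used Trim Galore, HISAT2, featureCounts and DESeq2 with build mm9; versions, strand setting and the treatment of multiply mapped reads: not given in the sources used here. Values have 2 decimals, and every CPM of 1 or less stands at 0. A further 1054 rows hold no gene and were left out, as was the authors' mean column.

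Low CPM values were whole multiples of 1 read (100% of values up to 20 reads lay within 0.1 of a whole number), which gave the depths. Their number limits the precision of low genes, and an interval covers the spread between libraries only. The genotypes were compared with limma 3.58.1 (R 4.3.3), fitted to the deposited log2 values with no pseudocount, genotype alone, a variance trend and two-sided Benjamini-Hochberg adjustment at 0.05 over 17801 genes with a value above 0 in at least 4 libraries; all 43 members passed that filter. A fold change is therefore on the deposited log2 scale and understates that of genes near the floor. Errors are SE of the fit, or SD over 4 libraries. The fit was tested on simulated data. Lengths are exon unions of coding transcripts in GENCODE M21 (GRCm38), which matched all 43 members. Exons of 12 members overlap another gene, 9 of them on the opposite strand and 3 on the same strand. Alternatives were other filters, pseudocounts (1 and 5), scalings, variance priors, replicate terms and left-out libraries.

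Members and lists were chosen with earlier results of these data known. The genes given with every library's value are the members called, the catalytic genes, Psme1 to Psme4, members at the floor, the called genes of each further list, Pomp and Nfe2l1, while Adrm1 and Psmf1 are given by their fold changes; Psmd7, Psmd2, Psmc3 and Psmd10 were added after their values were seen. Because the table holds log2 values, the planned count tests were replaced by limma's voom on recovered reads, added after seeing the data.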

Additional observations from a re-analysis of the deposited data

Results flagged for a closer look

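In 92 groups of 4 libraries (the members and summary medians, by genotype), 1 library stood far from the other 3 in 3 cases. Chance gives about 1 such case in 20 groups, so 3 in 92 is not an excess. Psmc6 was at 6.26 log2 CPM in Cox10-/- replicate 4, against 6.00 to 6.04 in the other Cox10-/- libraries. Psmd9 was at 4.32 log2 CPM in wild-type replicate 2, against 4.87 to 4.93 in the other wild-type libraries. The median deviation of the core genes was -0.12 (log2) in wild-type replicate 2, against 0.02 to 0.04 in the other wild-type libraries. Both libraries are the shallowest of their genotype.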

How the results depend on the processing

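Psmd14 kept its direction and its call in every alternative except the fit on 2 means per genotype. The count of members called was 2, both regulatory. It was 1 (Psmd14, regulatory) after median centring, with TMM factors and without the variance trend. It was 4 with the libraries numbered 1 and 2 separated from those numbered 3 and 4 by a term in the fit (core: 1, Psmb6) and 5 with voom on recovered reads (core: 2, Psmb5 and Psmb6). With 2 means per genotype it was 0 (regulatory: 0), and 858 genes were called in all, against 2863. Without the 2 shallowest libraries the core had 1 call, Psmb5. Leaving out 1 library gave 1 to 3 members, 0 to 1 core members, 1 to 2 regulatory members and 1840 to 2907 genes, the lowest without Cox10-/- replicate 3, then 1902 without wild-type replicate 1. In the same fits the core median ran from -0.33 to -0.22, the regulatory median from -0.23 to -0.16 and their difference from -0.10 to -0.0325. The regulatory median was -0.10 after median centring and -0.13 with TMM factors, and the difference was -0.035 at log2(CPM + 5). Psmb8 reversed to 0.045 without wild-type replicate 1. Psmb11 ran from -0.144 to 0.465, with -0.14 without Cox10-/- replicate 3 or without wild-type replicate 2. The cause was not tested. Beyond these, Psmb5, Psmb6, Psmc3, Psmd2 and Pomp gained a call under at least 1 alternative, so calls near the threshold rest on the choice of fit.

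With the replicate number as a block, 1 member was called (regulatory: 1, Psmd14) and 3201 genes in all. The deviations of same-numbered libraries correlated at 0.045 to 0.137, not all above 0.1, and not every library correlated best with its own number, so the numbers were not taken to pair the libraries. Across genotypes, the correlations were -0.024 to 0.165 between libraries of the same set (replicates 1 and 2, or 3 and 4) and -0.215 to 0.025 between the sets. The fit with a term for the sets called 3838 genes.

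The planned count tests with edgeR and DESeq2 were not run because the deposited values are on a log scale.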
